A study of Mus musculus with 12 samples.

Results

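Prpmp5, Prb1, Prp2 and Prh1 are 4 salivary proline-rich protein genes of the mouse. They were measured here by 1 array probe each, 4 of 41174 probes, in mammary tumours of 6 strains. The 4 were chosen because their log2 ratio of tumour over reference was high in the strain YB, so every contrast between YB and another strain is given for them as a description with no test. All 4 passed the filter on dim probes and stand among 28351 genes tested.

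Proline-rich proteins are small secreted proteins with repeats rich in proline, glutamine and glycine, and the acinar cells of the parotid and submandibular glands release them into saliva. Some of them bind dietary tannins, and in rodents their synthesis in the salivary glands rises strongly under beta-adrenergic stimulation. Their genes arose by duplication and lie together in a cluster, so that their transcripts are similar in sequence. Mammary epithelium is not a usual site of their expression.

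The tumours arose in female mice whose mammary glands express an activated form of neu, the rat ErbB2 receptor gene. The transgene stands under the MMTV promoter, which is active in mammary epithelium and in some other secretory epithelia. As background, the receptor of YB carries 1 tyrosine autophosphorylation site in its tail, the site that binds the adaptor Grb2, on a receptor that lacks the others. YC, YD and YE each carry 1 other of these sites in the same way. NYPD lacks these sites, and NDL25 (NDL2-5) is the parental strain with the sites in place. Every strain carries an MMTV/neu transgene, and no tumour-free mammary gland or salivary gland is among the samples. The mice had borne tumours for 6 weeks, and their ages are not given in the sources used here. From each strain 10 tumours were taken and their RNA mixed as 2 pools of 5, so a value of a pool does not show how many of its tumours carried a transcript, and fewer cells with a transcript cannot be told from less RNA per cell. Each pool was hybridised on 2 arrays with the dyes exchanged, against Universal Mouse Reference RNA, a mixture sold as a standard for arrays.

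On the 24 arrays, 58 to 360 spots were saturated in the tumour channel, whose median was 364.8 to 763.5 intensity units, with local background at 39 to 64. Erbb2 had log2 ratios of 1.85 and 4.19 in YB pools 1 and 2 and of 1.65 and 3.92 in NDL25 pools 1 and 2 on its brightest probe, against 3.42 to 4.05 in the pools of the other strains. The pools numbered 1 of YB and NDL25 thus stand apart on this probe. On a dimmer Erbb2 probe pools 1 and 2 read 0.81 and 0.61 in YB and 0.97 and 0.55 in NDL25. Another gave 0.24 and 0.37 in YB and -0.007 and 0.24 in NDL25.

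The 4 genes lie on mouse chromosome 6 in the order Prb1, Prpmp5, Prh1 and Prp2, with Prb1 and Prpmp5 on the minus strand and Prh1 and Prp2 on the plus strand. The 250 bases before the start of each gene are shown because all 4 genes were high in the same pools, from RefSeq on GRCm38.p6, written 5′ to 3′ on the strand of the gene. Capitals mark TATAAA, the letters of the TATA box. The windows are chr6:132210522-132210771 for Prb1, chr6:132314744-132314993 for Prpmp5, chr6:132569592-132569841 for Prh1 and chr6:132595661-132595910 for Prp2.
Prb1 promoter: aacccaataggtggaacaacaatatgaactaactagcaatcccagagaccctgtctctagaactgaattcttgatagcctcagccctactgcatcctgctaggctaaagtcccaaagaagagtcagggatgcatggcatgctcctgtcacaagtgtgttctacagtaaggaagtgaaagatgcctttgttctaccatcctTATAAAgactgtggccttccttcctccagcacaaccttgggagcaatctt
Prpmp5 promoter: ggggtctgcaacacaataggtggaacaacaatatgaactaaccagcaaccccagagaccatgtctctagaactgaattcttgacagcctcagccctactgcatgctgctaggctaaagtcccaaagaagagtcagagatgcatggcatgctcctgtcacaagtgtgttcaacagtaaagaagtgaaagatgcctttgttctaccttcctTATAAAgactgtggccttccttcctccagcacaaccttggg
Prh1 promoter: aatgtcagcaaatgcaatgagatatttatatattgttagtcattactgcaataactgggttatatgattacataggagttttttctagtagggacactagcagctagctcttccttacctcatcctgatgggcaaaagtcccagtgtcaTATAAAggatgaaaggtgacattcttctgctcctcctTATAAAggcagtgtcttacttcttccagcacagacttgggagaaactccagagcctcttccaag
Prp2 promoter: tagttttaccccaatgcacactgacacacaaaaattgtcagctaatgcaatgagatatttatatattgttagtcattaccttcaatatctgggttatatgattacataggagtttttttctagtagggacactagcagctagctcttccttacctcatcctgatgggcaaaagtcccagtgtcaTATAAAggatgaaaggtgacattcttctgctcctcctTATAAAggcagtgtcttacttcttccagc
The promoters fell into 2 pairs. Those of Prb1 and Prpmp5 were identical at 231 of 241 aligned positions (95.9%), and those of Prh1 and Prp2 at 210 of 215 (97.7%). Between the pairs a local alignment covered 100 to 116 positions, of which 70.0% to 72.1% were identical. TATAAA was searched on both strands and was present in all 4 windows, and in 12.4% of the 32851 RefSeq promoter windows of that length. It began 50 bases before the start in Prb1 and 41 before it in Prpmp5. Prh1 held it at 101 and 64 bases and Prp2 at 66 and 29 bases before the start. In these windows of Prh1 and Prp2 the reverse complement TTTATA also occurred once each. The longest run of letters common to all 4, found after the sequences were seen, was tccttataaag, which 15 of the 32851 windows held. These 15 include the windows of the 4 members and of the neighbouring genes Gm4736 and Gm8882. TAATCC, a motif of homeobox factors such as PITX1, and the E-box CATATG were also searched on both strands. They were in 6.25% and 3.46% of all windows and in none of the 4.

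All 4 members read far higher in both YB pools than in any of the other 10 pools. On the ratio scale 9.51% of all genes had both YB pools above all 10 others, and on the tumour channel level 4.32%. Since this contrast chose the members, nothing is read from their count. Without YB, all 4 lay within 0.53 of the reference on the log2 scale with the background correction used here. For Prpmp5 and Prb1, whose probes read near the negative controls there, this bound depends on the processing. With the scanner's processed signals, YE pools 1 and 2 read 0.97 and 1.29 for Prpmp5 and 1.03 and 1.06 for Prb1.

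Prpmp5, which encodes the proline-rich protein MP5, had log2 ratios of tumour over reference of 5.98 and 6.10 in YB pools 1 and 2, against 0.03 and 0.10 in YC, 0.23 and 0.16 in YD, 0.30 and 0.45 in YE, 0.02 and 0.04 in NYPD and 0.10 and 0.08 in NDL25. Both YB pools were high and lay 5.53 or more above every other pool. Its mean was 6.04 ± 0.09 in YB (SD, n = 2 pools).

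Prb1, of the BstNI subfamily of proline-rich proteins, had log2 ratios of 4.56 and 3.93 in YB, against 0.12 and 0.13 in YC, 0.34 and 0.13 in YD, 0.43 and 0.49 in YE, 0.16 and 0.20 in NYPD and 0.21 and 0.18 in NDL25. The groups did not overlap, and the lower YB pool was 3.44 above the highest other pool. Here YB pool 2 was the lower of the YB pools. The mean in YB was 4.24 ± 0.45 (SD, n = 2 pools).

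Prp2, proline-rich protein 2, had log2 ratios of 3.74 and 4.37 in YB, against 0.37 and 0.40 in YC, 0.43 and 0.43 in YD, 0.31 and 0.42 in YE, 0.34 and 0.53 in NYPD and 0.20 and 0.23 in NDL25. The lower YB pool was 3.21 above the highest other pool. The mean in YB was 4.05 ± 0.45 (SD, n = 2 pools).

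Prh1, of the HaeIII subfamily of acidic proline-rich proteins, had log2 ratios of 2.44 and 4.34 in YB, against -0.13 and -0.25 in YC, -0.14 and -0.27 in YD, -0.20 and -0.18 in YE, -0.40 and -0.13 in NYPD and -0.45 and -0.44 in NDL25. Pool 2 of YB was above pool 1 by 1.90, and the lower YB pool was 2.56 above the highest other pool. The mean in YB was 3.39 ± 1.34 (SD, n = 2 pools). The probe annotated Prh1 also lists the Prp2 transcript among its targets, so the readings of these genes are not separate beyond doubt.

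**Figure D1:**
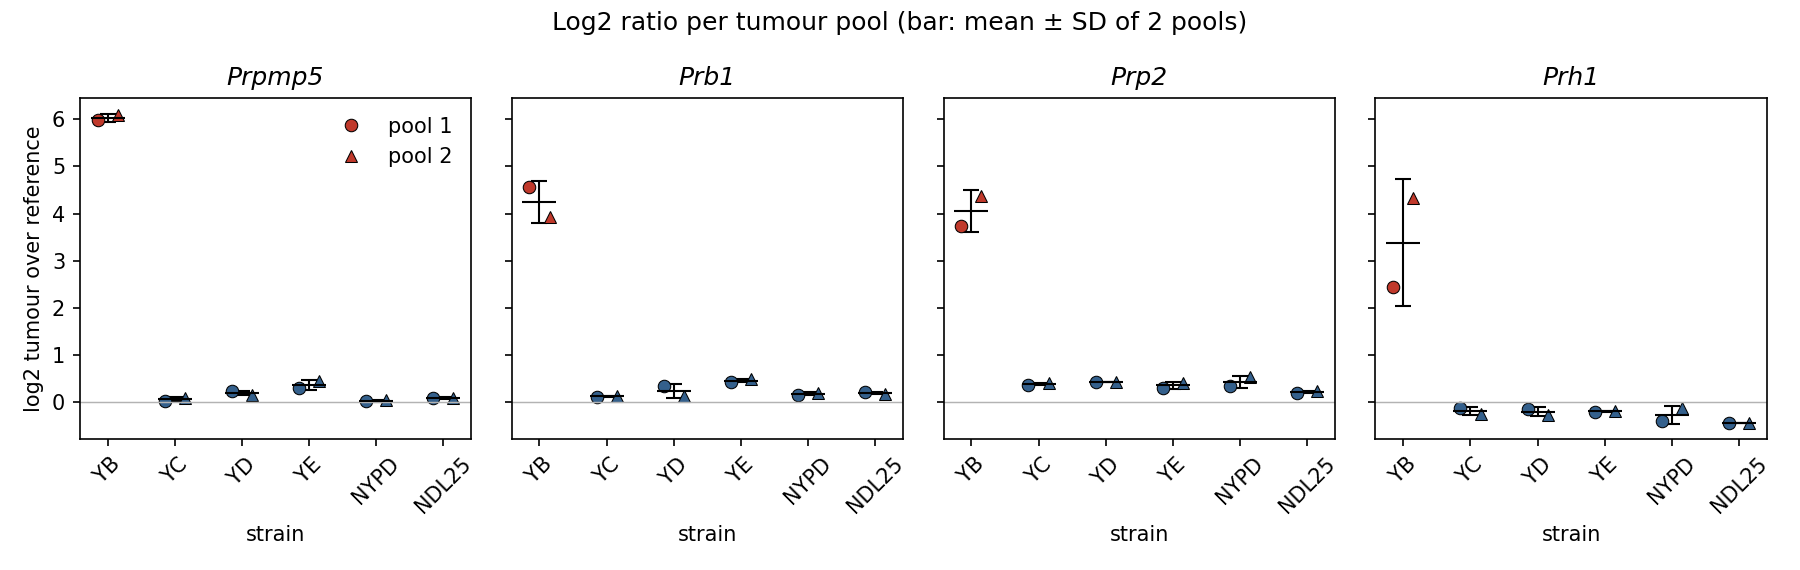
Log2 ratio of tumour over reference (vertical axis) for each member in the 2 pools of each strain (horizontal axis), with the mean and SD as bars. Both YB pools stand above all other pools in each panel, from 2.44 for Prh1 in pool 1 to 6.10 for Prpmp5 in pool 2, while the other 10 pools lie between -0.45 and 0.53.

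Outside YB the probes of Prpmp5 and Prb1 read near the negative control spots. Their mean tumour channel intensity was 89.5 to 205 for Prpmp5 and 101 to 220 for Prb1 on the 20 arrays of the other strains, where the 99th percentile of the negative control spots was 59.0 to 186 intensity units over all arrays. On all 24 arrays the scanner software still marked the tumour channel of both as well above background. The probes of Prp2 and Prh1 read 655 to 1888 and 895 to 3388 in the tumour channel of these arrays, above the negative controls, and the reference channel read alike there, at 495 to 1147 and 1320 to 3241. Levels of different probes are not set against each other.

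On YB arrays the tumour channel intensity of Prpmp5 was 24575 and 31795 in pool 1 and 33562 and 38160 in pool 2, with no saturated spot. Prb1 read 47027 and 55462 in pool 1 and was saturated on both arrays of pool 2, where it read 65295 and 65186. Prp2 was likewise saturated on both arrays of pool 2, at 65295 and 65186, and read 17051 and 25852 in pool 1. Prh1 read 10960 and 17146 in pool 1 and 46602 and 62818 in pool 2, with no saturation mark, though 5 pixels of the last spot were saturated. A saturated spot reads too low, so the YB values of Prb1 and Prp2 in pool 2 are lower bounds.

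The reference channel moved too. The same reference RNA was on every array, yet Prb1 read 2775 and 882 in the reference channel of YB pool 1 and 9293 and 1403 in that of pool 2, against 72.8 to 155 on the arrays of the other strains. Prpmp5 read 434 and 218 in pool 1 and 668 and 240 in pool 2, against 68.2 to 152. For Prp2 these readings were 1406 and 856 in pool 1 and 5165 and 1331 in pool 2, against 495 to 1147. In all 4 members the first YB array of each pool, with the tumour in Cy3 and the reference in Cy5, had the higher reference reading in both pools. The readings of Prh1, 1826 and 1704 in pool 1 and 2755 and 1748 in pool 2, lay within the 1320 to 3241 of the other strains.

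**Figure D2:**
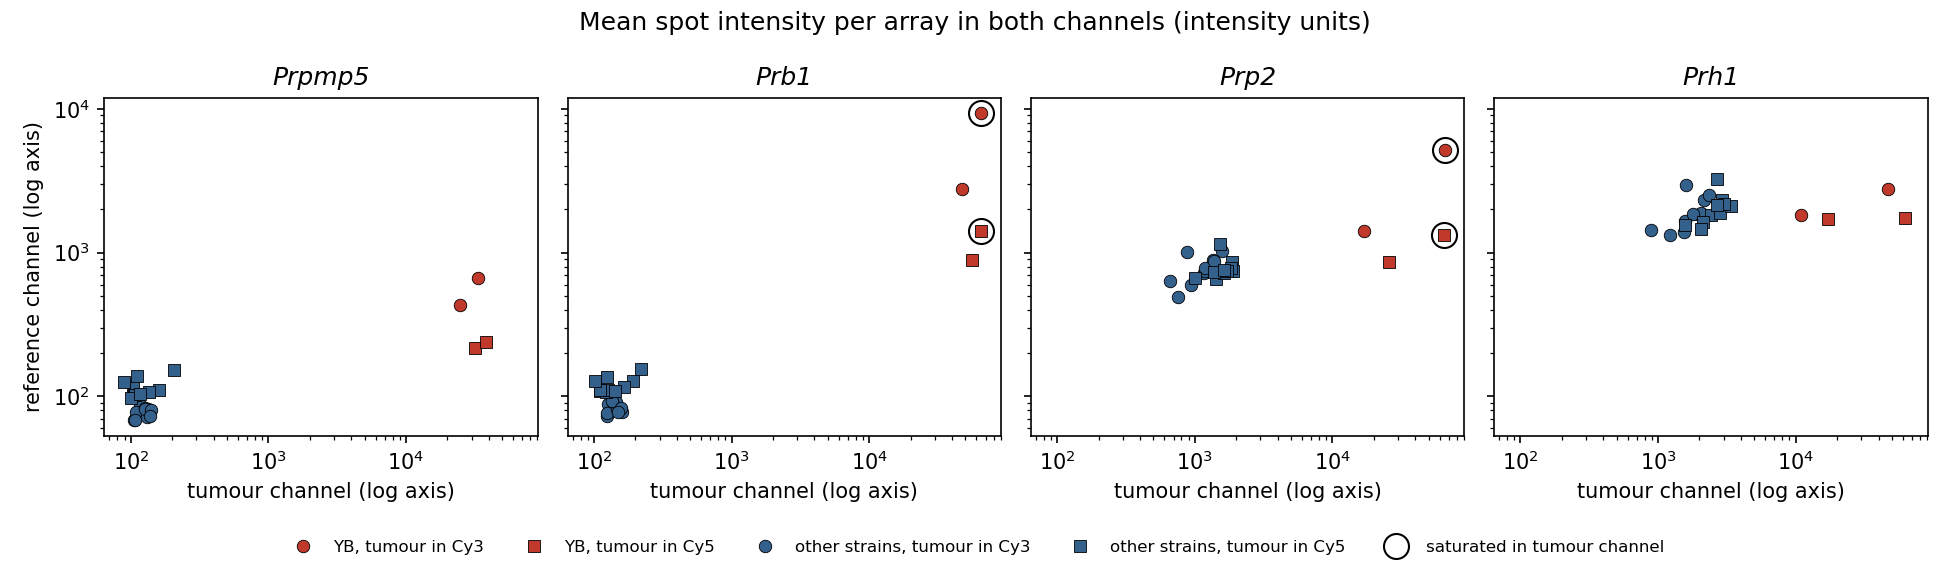
Mean spot intensity in the tumour channel (horizontal, log axis) and in the reference channel (vertical, log axis) on each of the 24 arrays, in intensity units, with YB arrays in red, arrays of the other strains in blue, the dye of the tumour as the marker shape and saturated spots ringed. The reference readings of Prb1 are 882 to 9293 on YB arrays and 72.8 to 155 on the others, while those of Prh1 overlap.

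The size of the YB difference therefore depended on whether the ratio or the tumour channel was read. The channel levels used here are log2 levels after normalisation within and between arrays. Over the ratio, the mean of the 2 YB pools was above that of the 10 other pools by 5.89 for Prpmp5, 4.01 for Prb1, 3.69 for Prp2 and 3.65 for Prh1, or 59.2-fold, 16.1-fold, 12.9-fold and 12.5-fold. Over the tumour channel level the same differences were 8.01, 8.71, 4.79 and 3.64, or 258-fold, 419-fold, 27.6-fold and 12.5-fold. The folds of Prpmp5 and Prb1 are taken over readings near the negative controls and those of Prb1 and Prp2 include saturated spots, so those of Prb1 and Prp2 on the tumour level are lower bounds. No order among the members is read from these sizes.

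The reference channel level differed by 2.12 for Prpmp5, 4.70 for Prb1, 1.10 for Prp2 and -0.004 for Prh1, against a median of -0.001 over all genes. Of all genes, 18 had a tumour level at least 4 higher in YB than in the other strains, and in 15 of them the reference level was also higher in both YB pools than in all 10 others, which held for 2.37% of all genes. Prb1, Prpmp5 and Prp2 are among the 18. Among the others are Crisp1, Cst10 and Dcpp1, whose reference levels differed by 2.28, 3.41 and 4.46. The cause of the reference reading was not tested.

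**Figure D3:**
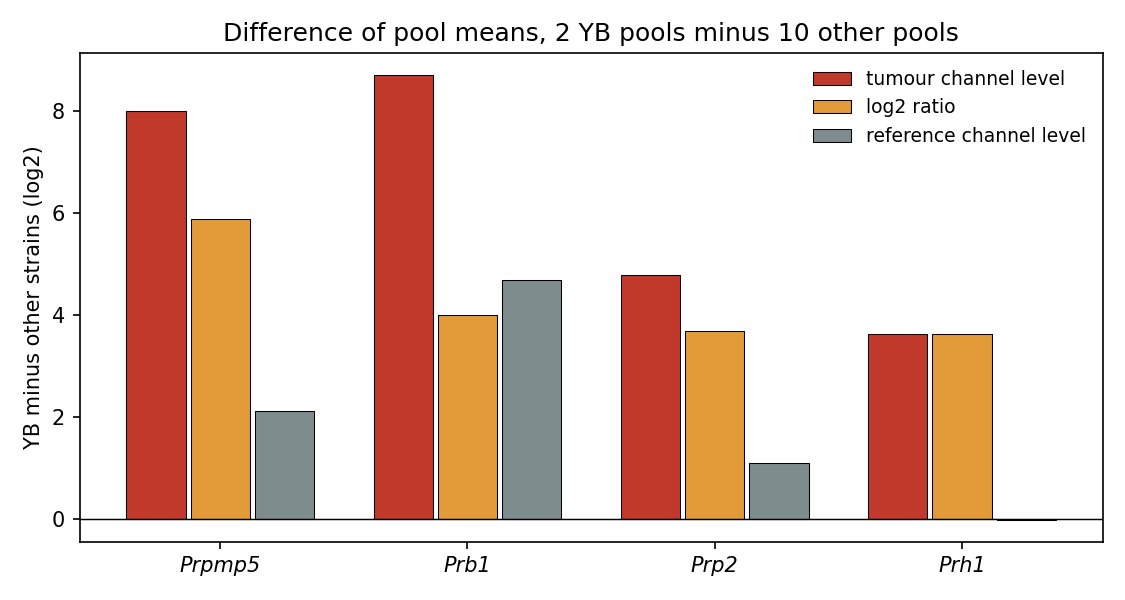
Difference between the mean of the 2 YB pools and the mean of the 10 other pools (log2, vertical axis) for each member, in the tumour channel level, in the ratio and in the reference channel level. The ratio and the tumour level differ little for Prh1, and the ratio is smaller by the reference difference for the others, 4.70 for Prb1.

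The YB pools differed from each other in a way that depended on the member. The tumour channel level was higher in pool 2 by 0.51 for Prpmp5, 0.51 for Prb1, 1.80 for Prp2 and 2.12 for Prh1, where the saturated spots of Prb1 and Prp2 make theirs lower bounds. The ratio of Prb1 ran the other way, with pool 2 below pool 1 by 0.63. In the authors' deposited table, Prb1 has no value in either YB pool, and Prpmp5 has 6.50 and 5.62, Prp2 3.39 and 3.72 and Prh1 2.19 and 3.74 in YB pools 1 and 2.

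Among the strains other than YB, none of the 28 tests of a member, 7 contrasts for each gene, passed limma with Benjamini-Hochberg adjustment over all genes at 0.05, and 3 had an unadjusted p under 0.05, all of Prpmp5. Over all genes 1.04% were called in NYPD minus NDL25 and 1.82% in YE minus NYPD. In YC, YD and YE minus NDL25 0.00353%, 0.00705% and 0% were called, and in YC and YD minus NYPD 0.0141% and 0.0282%. The nearest to a call was Prpmp5 in YE minus NYPD, with a log2 difference of 0.35 ± 0.07 (SE, n = 2 pools each, limma adjusted p = 0.0546). In YE minus NDL25 it had 0.29 ± 0.07 (limma adjusted p = 0.349). The spread in this fit includes that of the YB pools. The SE of a contrast was 0.49 for Prh1 and 0.18 for Prb1 and for Prp2. For these genes the lack of calls therefore cannot exclude small differences. A fit of the 10 pools without YB was added after the data were seen. Its SE was 0.10 for Prh1, 0.07 for Prb1 and for Prp2, and 0.06 for Prpmp5. Prpmp5 in YE minus NYPD passed in it (limma adjusted p = 0.0422), where 3.46% of all genes did. In that fit 9 of the 28 tests had an unadjusted p under 0.05, 3 of Prpmp5 and 2 each of Prb1, Prp2 and Prh1, and the other 8 did not pass after adjustment. Among them Prb1 was higher by 0.28 ± 0.07 in YE minus NYPD (limma adjusted p = 0.0988) and by 0.27 ± 0.07 in YE minus NDL25 (limma adjusted p = 0.383). Prp2 in NYPD minus NDL25 was at 0.22 ± 0.07 (limma adjusted p = 0.185), and Prh1 in YC minus NDL25 at 0.25 ± 0.10 (limma adjusted p = 0.352). Prpmp5 in YE minus NYPD also passed without either YB pool, and with the scanner's processed signals, at 0.98 (limma adjusted p = 0.0199).

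With the background correction used here, the levels behind these tests were small. Prpmp5 and Prb1 were highest in the YE pools, at 0.30 and 0.45 and at 0.43 and 0.49, and next in YD, where Prb1 pool 2 lay with the rest at 0.13. For Prp2 the NDL25 pools were the lowest, at 0.20 and 0.23, below the 0.31 to 0.53 of the other 8 pools. Prh1 was also lowest in NDL25, at -0.45 and -0.44, with NYPD pool 1 next at -0.40. The differences among YC, YD and YE were not tested. All arrays of YD and YE were read in 1 feature extraction session, those of NDL25 and YB in another and those of NYPD in a session of their own, while the YC arrays span the first and second of these. NYPD and session cannot be told apart. For a fit with session as a block, each pool took the session of its first array. In it 0 of the member tests that could be fitted passed (lowest limma adjusted p = 0.821). Contrasts with NYPD, among them YE minus NYPD, could not be fitted. Only the YC pools differ in session within a strain, so the block rests on them and cannot decide the part of session. The part of session in the order of YE and YD was not tested further.

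Likeness to the mean of the members was ranked by Pearson's r over the 12 pools on centred log2 ratios. The ranking was limited to genes with an ordinary symbol, 17856 of the 28351 tested with the members included. It left out Gm4736, LOC381818 and other provisional names. The most alike were Ovch2, Crisp1, Ubr4, Olfr745, Bpifb1, Sfxn4, Podxl and Tspear, with r from 0.999 to 0.994. The points share 2 pools that are far above the other 10, so such values mostly record that both YB pools were high by like amounts. Ovch2, a serine protease gene, had log2 ratios of 1.57 and 1.85 in YB, against -0.05 to 0.07 in the other strains. Crisp1, a cysteine-rich secretory protein of epididymis and salivary gland, had 5.20 and 5.37 in YB, against -0.02 to 0.20, with 1 of the 4 YB arrays saturated. Bpifb1, a BPI-fold protein secreted in the airways and mouth, had 3.64 and 3.63, against -0.08 to 0.13, with 2 of these arrays saturated. Podxl, a sialomucin of podocytes and endothelium, had 1.12 and 1.36, against -0.08 to 0.12. Tspear had 1.12 and 1.53 in YB, against -0.29 to -0.14 elsewhere.

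The probes annotated Ubr4 and Sfxn4 read 3.62 and 3.23 higher in YB than in NDL25, while another probe of each gene gave 0.05 and -0.23, and the brighter Ubr4 probe was saturated on 1 of the 4 YB arrays. The probe annotated Olfr745, an olfactory receptor gene, read 2.51 and 3.04 in YB, against -0.10 to 0.10. What these 3 probes detect was not tested.

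Other genes of secreted salivary products rose with the members, but far from all of them. Of 30 such genes, listed with earlier results of these data known, 24 were tested. In YB minus NDL25, 9 were higher and 0 lower by limma, with a list median of 0.65 against -0.01 over all genes, where 3.15% of genes were called higher and 3.96% in either direction. The 9 were Crisp1, Dnase1, Bpifb1, Cst10, Amy1, Sbp, Crisp3, Pigr and Lpo. In YB minus NYPD, 8 were higher and 0 lower, all of these but Pigr, with a median of 0.78 against 0.003 over all genes, where 4.1% were called higher and 5.16% in either direction. The count in YB minus NDL25 was 5 without NDL25 pool 1, and that in YB minus NYPD was 13 without YB pool 1. Without both of these pools the counts were 8 and 13.

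Among enzymes, Amy1, the salivary amylase, had log2 ratios of 2.87 and 3.38 in YB, against 0.03 to 0.45 in the other 10 pools, and rose 8.20-fold (log2 3.04 ± 0.17 SE, n = 2 pools each, limma adjusted p = 0.000191) over NDL25. Another Amy1 probe gave -0.12. Its brightest probe was saturated on all 4 YB arrays, so this fold reads too low. Dnase1, a secreted nuclease abundant in the parotid, had 3.10 and 4.83 in YB, against 0.03 to 0.20, with 2 of the 4 YB arrays saturated. Lpo, the lactoperoxidase of milk and saliva, had 1.52 and 1.11 in YB, against -0.01 to 0.37, and rose by 1.22 ± 0.15 (limma adjusted p = 0.00737).

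Among other secreted proteins, Cst10, an inhibitor of cysteine proteases of the cystatin family, had 3.25 and 4.67 in YB, against 0.14 to 1.09, and rose by 3.11 ± 0.41 (limma adjusted p = 0.0101), also with all 4 YB arrays saturated. Crisp3 had 3.23 and 2.41 in YB, against -0.07 to 0.07, and rose by 2.85 ± 0.22 (limma adjusted p = 0.00114). Sbp, the spermine-binding protein, had 3.24 and 2.80, against -0.08 to 0.08, and another probe of the gene gave -0.03. Pigr, the receptor that carries immunoglobulin A into secretions, had 4.77 and 4.0 in YB, against 2.62 to 3.75, so it was above the reference in every strain. It rose by 1.43 ± 0.30 over NDL25 (limma adjusted p = 0.0437), and this call was lost in 17 of 25 alternative settings. The call of Cst10 was lost in 2 of 24 settings, and those of Dnase1 and Lpo in 2 of 25 each. Crisp1, Bpifb1, Amy1, Sbp and Crisp3 kept theirs in every setting that could be computed.

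The 6 genes with the largest differences among those that did not pass in YB minus NDL25 were Mucl2, Lyz1, Pip, Kng1, Car6 and Lyz2, at 2.46, 0.95, 0.70, 0.60, 0.54 and 0.53. The YB pools disagreed in several of them. Mucl2, a mucin-like gene of the salivary gland, had 1.11 and 4.65 in YB pools 1 and 2, against 0.01 to 1.03. It was saturated on 1 YB array, and Lyz2 on 2. Pip, prolactin-induced protein, had 2.09 and 5.06 in YB, against 0.04 to 2.91, and its other probe gave 0.08. Car6, the secreted carbonic anhydrase of saliva, had 1.34 and 2.90 in YB, within the 1.43 to 3.02 of the other strains except for pool 1 below it, and was saturated on all 4 NDL25 arrays. Dcpp1, a demilune cell and parotid protein, had ratios of 3.53 and 3.70 in YB, against 2.15 to 4.79, but its spot was saturated on all 4 YB arrays and its reference level was 4.46 higher there. By the tumour channel level both YB pools lay above all 10 others, by at least 1.29. That level was at least 17.4-fold higher in YB than in NDL25 (limma adjusted p = 0.303) and at least 34.1-fold higher than in NYPD (limma adjusted p = 0.0808), and neither passed.

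Read as tumour channel level, 8 of the 24 were called higher and 0 lower in each of the contrasts, where 0.896% of genes were called higher over NDL25 and 1.36% over NYPD. Over NDL25, Cst10 was at least 91.6-fold and Amy1 at least 39.2-fold higher on that scale, with all 4 YB arrays saturated. Crisp1, saturated on 1 of them, was at least 201-fold higher, and Bpifb1, saturated on 2, at least 70.3-fold. No order is read from these bounds. On the ratio scale Crisp1, Cst10, Bpifb1 and Amy1 were 38.99-fold, 8.62-fold, 12.7-fold and 8.20-fold higher.

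**Figure D4:**
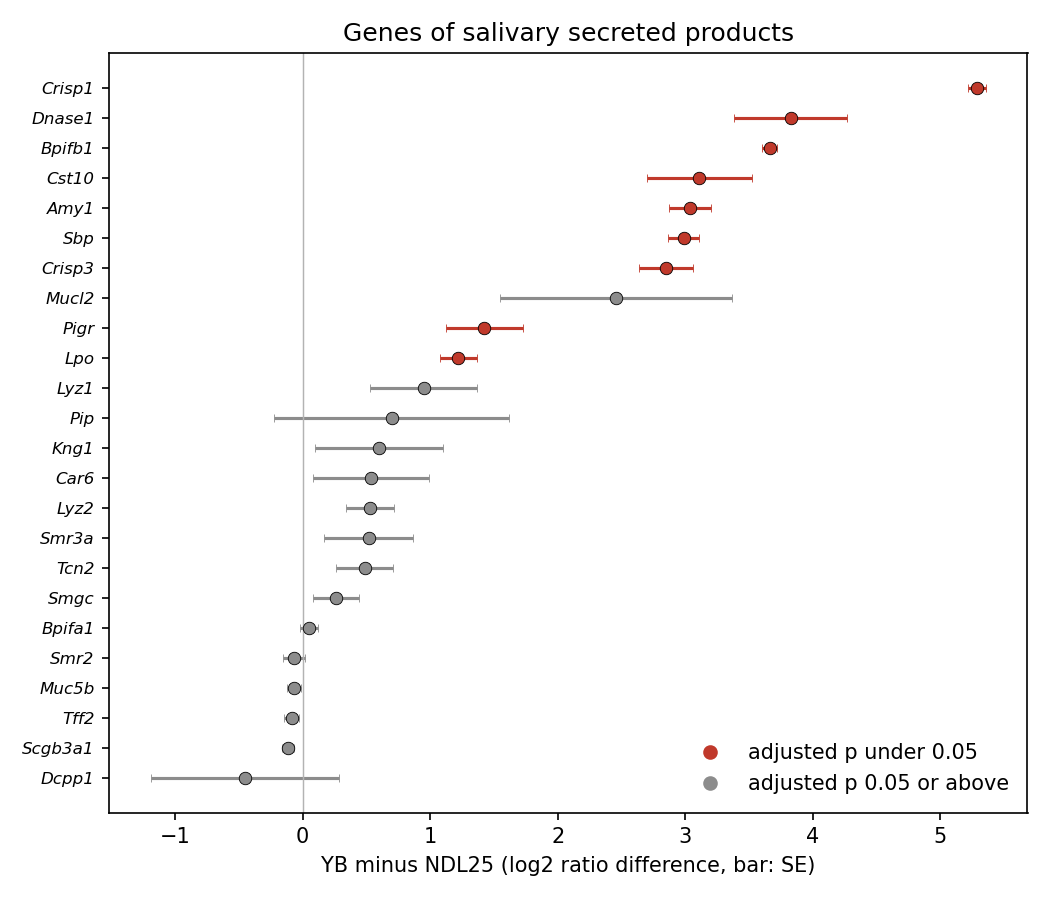
Difference in log2 ratio between YB and NDL25 (horizontal axis, bars are SE from limma, n = 2 pools each) for the 24 tested genes of salivary secreted products, in red where the adjusted p is under 0.05. Crisp1 lies at 5.29 and Dcpp1, whose spot was saturated on all 4 YB arrays, at -0.45.

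Of 14 tested markers of salivary acinar cells, 7 of them also in the list of secreted products, Amy1 and Lpo were called higher in YB minus NDL25 and 0 were lower, where 3.15% of all genes were called higher. The list median was 0.17 against -0.01 over all genes. The mean log2 ratio over the list was 2.09 in YB pool 1 and 2.92 in YB pool 2, against 1.69 to 2.32 in the other 10 pools, so that pool 2 alone lay above them. Aqp5, the water channel of acinar cells, had 3.60 and 3.73 in YB, against 2.84 to 3.65. Bhlha15 (Mist1), a transcription factor of secretory acinar cells, had 3.07 and 3.24, against 2.63 to 3.84, and Slc12a2, the basolateral chloride transporter, had 2.29 and 2.95, against 2.61 to 3.74. These genes were thus above the reference in every strain. Smgc, a submandibular mucin-like gene, was near 0 in YB pool 1, at -0.11, and had 0.54 in pool 2.

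Of 17 tested salivary duct genes Crisp3 alone was called higher in YB minus NDL25 and 0 were lower, where 3.15% of all genes were called higher. The list median was -0.01, as over all genes. The list mean was 0.76 and 1.08 in YB, against 0.57 to 0.94. The kallikrein genes Klk1b1 and Klk1b9 and the duct transcription factor gene Ascl3 were within 0.32 of 0 in all pools. Other kallikreins were higher in YB pool 2 than in pool 1. Klk1b3 had 0.32 and 2.47 in YB, against 0.22 to 1.26, Klk1 had -0.98 and 0.61, against -0.55 to 0.39, and Klk1b26 had 0.48 and 1.59, against 0.32 to 1.94.

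Markers of other cell types also moved in single genes. Over all genes 3.15% were called higher in YB minus NDL25. Of 14 mammary luminal genes Krt19, a keratin of simple epithelia, was called higher in YB minus NDL25 by 3.40 ± 0.64 (limma adjusted p = 0.0316), with 1.48 and 0.29 in YB, against -3.09 to 0.49, and the list mean was 2.35 and 2.35 in YB, against 1.91 to 2.56. Of 8 keratinocyte genes, 2 were called higher. Tgm3, a transglutaminase of stratified epithelium, had 2.71 and 2.54 in YB, against 0.13 to 0.57 (difference 2.48 ± 0.12, limma adjusted p = 0.000117), and Lor, the gene of loricrin, had 0.66 and 1.09, against 0.18 to 0.53. The keratinocyte list mean was 0.56 and 0.52 in YB, against 0.05 to 0.80. The single calls in the macrophage, myoepithelial and adipocyte lists were Cd14, Trp63 and Plin1, higher by 2.26, 0.82 and 0.31. Their list means in YB were 1.69 and 1.14, 0.07 and 0.15, and 1.68 and 1.38, against 0.31 to 1.27, -0.45 to 0.77 and 0.91 to 1.85. Cd14 had 1.55 and 1.87 in YB, within the -0.66 to 1.99 of the other strains. It read 1.99 and 1.39 in NYPD and was low in NDL25, at -0.53 and -0.57. Plin1 had 0.49 and 0.61 in YB, against 0.11 to 0.29. Of the myoepithelial genes, Trp63 among them, 0 had both YB pools above all others. Of 6 skeletal muscle genes 0 were called. The list medians in YB minus NDL25 were 0.04 for luminal, 0.09 for keratinocyte and 0.54 for macrophage genes. They were 0.54 for myoepithelial, 0.41 for adipocyte and 0.04 for muscle genes, against -0.01 over all genes. The part of salivary or other cells in the YB values of the members was not tested.

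The measured genes around the members cover that stretch of the chromosome only in part. Of the 51 other protein-coding genes in the window on chromosome 6, from Klra4 to Etv6, 23 were measured. After Prp2, 8 of 25 were measured. In YB minus NDL25, 2 of the 23 were called higher, Gm4736 and Klra3, and 0 lower, where 3.15% of all genes were called higher, with a median of 0.06 against -0.01 over all genes. The same counts were found in YB minus NYPD, where 4.1% of all genes were called higher. Gm8882, the 1 gene between members, is not among the probes named here.

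Gm4736, named MP4 in the array file and described there as a proline-rich protein, is the gene next to Prb1 and the nearest measured gene on that side. Its log2 ratios were 3.68 and 3.16 in YB, against 0.06 to 0.23 in the other strains, and it rose 9.61-fold over NDL25 (log2 3.26 ± 0.14 SE, n = 2 pools each, limma adjusted p = 4.99e-05). Its spot was saturated on both arrays of YB pool 2. Its reference channel level was also higher on YB arrays, by 3.04, and its tumour level by 6.32. The promoter of Gm4736 was identical to that of Prb1 at 225 of 227 aligned positions. No probe sequence was compared, so whether the Gm4736 probe also reads transcripts of Prb1 or of other members was not tested.

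On the other side the nearest measured gene was Tas2r102, a bitter taste receptor gene, with log2 ratios of -0.02 and 0.03 in YB, against -0.06 to 0.09. The bitter taste receptor genes flank the members on both sides. The 7 that were measured had YB minus NDL25 differences of -0.12 to 0.16, and 0 passed limma. In 2 of the 7 both YB pools lay above all 10 others, as in 9.51% of all genes. These were Tas2r130, at 0.07 and 0.05 against -0.11 to -0.05, and Tas2r107, at 0.12 and 0.12 against -0.08 to 0.06. The intensities of the 7 were not set against the negative controls, so ratios near 0 do not tell whether these genes were expressed. Klra3, a natural killer cell receptor gene, had 0.15 and 0.36 in YB, against -0.23 to -0.09, a difference of 0.46 ± 0.08 (limma adjusted p = 0.0244). Its other 2 probes gave 0.07 and 0.07, and the call was lost in 12 of 25 alternative settings. The count of called neighbours in YB minus NDL25 was 1 without either pool of NDL25, YD or YE, and that in YB minus NYPD was 1 without any single pool other than YB pool 1, where it was 3.

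**Figure D5:**
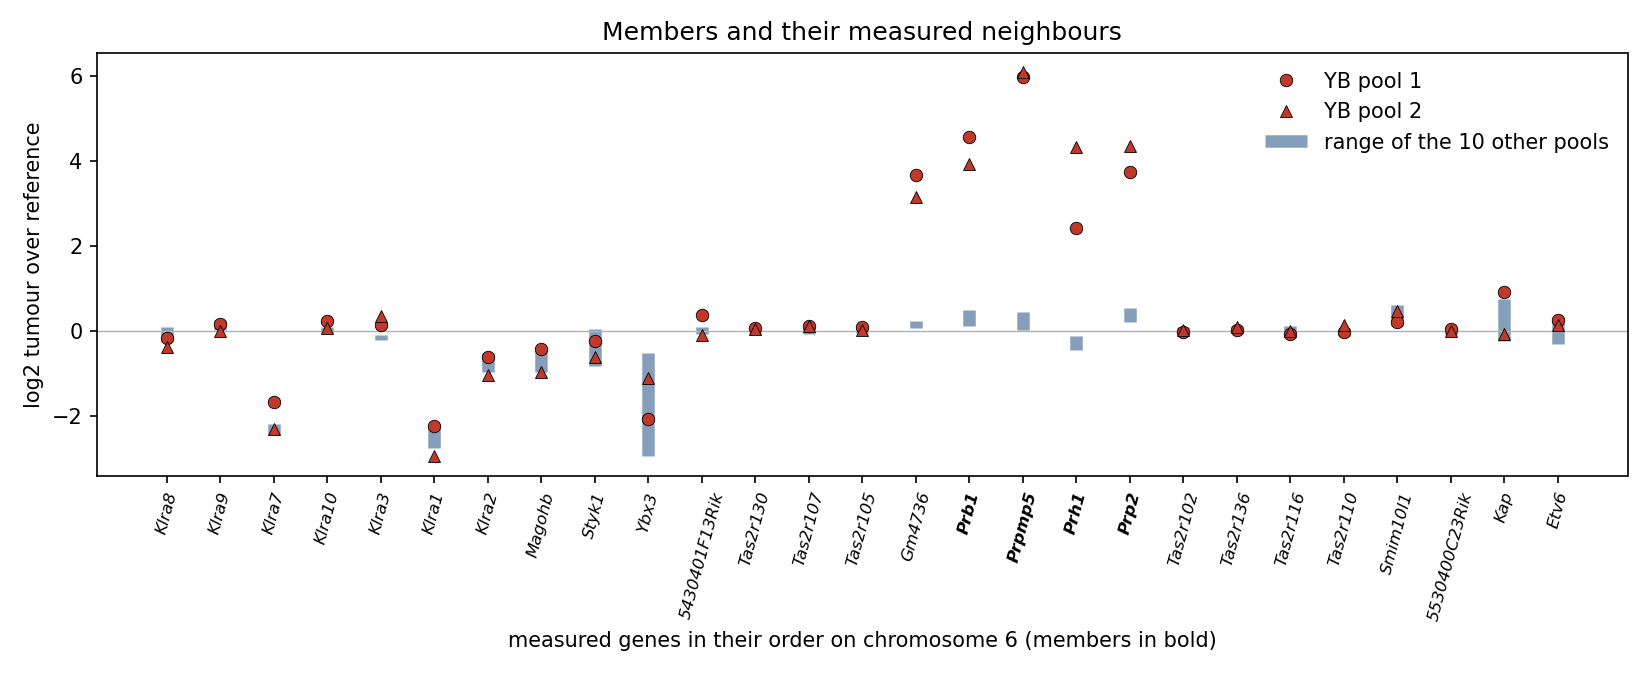
Log2 ratio of tumour over reference (vertical axis) of the members (bold) and of their measured neighbours in their order on chromosome 6 (horizontal axis), with the YB pools as red points and the range of the 10 other pools as blue bars. Gm4736 and the 4 members stand apart in YB, at 2.44 to 6.10, while the neighbouring taste receptor genes lie near 0.

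Of 14 tested other genes with proline-rich in their names, 2 were called higher in YB minus NDL25 and 0 lower, where 3.15% of all genes were called higher, with a median of -0.06 against -0.01 over all genes. Sprr2a1, a small proline-rich protein of the cornified envelope, had log2 ratios of 1.69 and 2.12 in YB, against -0.10 to 1.0 (difference 1.98 ± 0.27, limma adjusted p = 0.0114). Prrg1, a membrane protein with a Gla domain, had 0.53 and 0.78, against -0.09 to 0.00 (0.70 ± 0.08, limma adjusted p = 0.00519). In YB minus NYPD, where 4.1% of all genes were called higher, 3 were higher, these and Prr15, at 1.05 ± 0.24 (limma adjusted p = 0.0488), whose YB pools at 1.87 and 2.06 lay within the 0.81 to 2.26 of the other strains. The remaining genes, among them Sprr1a, Sprr1b, Sprr2d, Sprr3, Prap1, Prr5l, Prr13, Prr16, Prr27, Prrg2 and Prelp, had differences of -0.23 to 0.18 from NDL25.

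The probe LOC381818, described in the array file as similar to a proline-rich protein and picked by that description after the files were seen, had log2 ratios of 1.32 and 2.39 in YB, against -0.02 to 0.13 in the other strains. Its reference channel level differed by 0.17 between YB and the others.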

How the data were processed

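The 12 array samples, 2 pools for each of 6 strains, were analysed from their scanner files. The authors' deposited scanner files, written by Agilent Feature Extraction A.7.5.1 per the file headers, hold mean spot intensity and local background intensity in each channel. They also hold background-subtracted, dye-normalised processed intensity, and marks for saturated and flagged spots, per the file headers. A further deposited file type holds the authors' ratio for each pool and probe, read here as log2. RMA, limma and R 2.3.0 are named for the series, with no role, in the submitters' processing notes. No source used here states the base of the logarithm, and across genes the deposited ratios correlated with the ratios computed here at r = 0.983 or above.

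The labels do not say which dye held the tumour. It was read from 37 probes of luminal and milk genes, whose median was at least 1.30 (log2) on every array, and each pool had 1 array of each dye. Before the swapped array was turned, the arrays of a pair correlated at -0.816 or below. Intensities were corrected by normexp (offset 50) and normalised by loess with limma 3.58.1 (R 4.3.3; data.table version 1.17.8). Flagged spots were left out, and the pair was averaged. Channel levels were taken after loess and Aquantile. Of 41174 probes, 698 lacked a value on some array, 312 were well above background on under 4 arrays and 11813 were dimmer probes of a gene, which left 28351 genes. Accessions gave current symbols to 20716 probes, symbols to 5039 and synonyms to 5279, while 10140 probes have the array file's name.

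limma was fitted with a mean per strain to the 12 pools (residual degrees of freedom 6, prior 1.76), with Benjamini-Hochberg adjustment per contrast and a threshold of 0.05. The model was checked on simulated data. The members and lists were chosen with earlier results of these data known. Named were all members, the 8 genes with an ordinary symbol most like them, called genes of the salivary list and the 6 largest others. The other proline-rich genes, the nearest measured and called neighbours and Erbb2 were also named. Promoters came from RefSeq (GRCm38.p6) and were searched and aligned (match 1, mismatch -1) in Python 3.11.15 with Biopython 1.88. The pools are separate tumours, and their number limits the precision. Alternatives were the background correction, the normalisation, the deposited ratios, single arrays, saturated spots, the dim-probe filter, the mean of probes, the pool number or extraction session as a block, and each pool left out. No probe or protein sequence was used here.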

Additional observations from a re-analysis of the deposited data

How the results depend on the processing

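In each of the 24 settings in which all could be computed, the YB pools kept in the setting lay above all others for all 4 members. Settings that left out a YB pool held only 1 of them. The members were chosen for their high YB values, so nothing is read from this count. The lowest gap between the lower YB pool and the highest other pool was 5.00 for Prpmp5, 2.38 for Prb1 and 2.85 for Prp2 with the first arrays alone or, for Prp2, 2.80 with the deposited ratios, and 2.20 for Prh1 with the tumour level. The count of 28 tests without YB was 1 with processed signals and 1 in the added fit without the YB pools, and 0 to 1 when 1 pool was left out. Salivary genes called in YB minus NDL25 numbered 5 to 11 when 1 pool was left out, with the 5 without NDL25 pool 1, and those in YB minus NYPD 8 to 13. With pools 1 of NDL25 and YB left out together, added after the data were seen, these were 8 and 13. Called neighbours numbered 1 in YB minus NDL25 with the first arrays, the second arrays, the mean of probes, the tumour level and the 2 pools 1 left out together. In YB minus NYPD they numbered 1 with median centring and the same settings other than the last. Both were 1 to 3 when 1 pool was left out. Reversed differences from NDL25 were those of Pip and Car6 with the deposited ratios (-0.045 and -0.98), Car6 with the second arrays (-0.41) and the tumour level (-2.18), and Pip, Kng1 and Car6 without YB pool 2. When 1 pool was left out they ran from -0.79 to 2.18, -0.28 to 1.47 and -0.25 to 1.32, and none of these genes passed limma in those settings. The cause was not tested. First or second arrays alone mix a dye difference with strain.

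The labels give the pool numbers no shared origin, and the differences between pools 1 and 2 correlated across genes at -0.17 to 0.71 over 15 pairs of strains, 7 of them above 0.1, so the numbers were not taken to pair the samples, though some strains deviate together. With the number as a replicate block, 0 of the 28 member tests passed, with 8 and 8 salivary genes and 2 and 2 neighbours over NDL25 and NYPD. Pigr lost its call (limma adjusted p = 0.0597). With session as a block 8 salivary genes and 2 neighbours passed over NDL25. All arrays of YB and NDL25 are of 1 session, so this block does not adjust their difference. Contrasts with NYPD cannot be fitted with it, and the deposited ratios give no gap for Prb1. Saturation on 1 or more YB arrays limits the YB values of Prb1, Prp2, Gm4736, Amy1, Cst10, Dcpp1, Dnase1, Bpifb1, Lyz2, Crisp1, Mucl2 and Ubr4.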
